A study of Rattus norvegicus with 25 samples.

Results

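Breakdown of the branched-chain amino acids was followed in rat liver through 7 genes of its committed steps: Ppm1k, Bckdha, Bckdhb, Bckdk, Bcat2, Dbt and Ivd. The genes were found by their symbols in the annotation of the array. Of the 7 genes, 4 had a probe, which gave 5 of the 9911 gene probes of the array, and these 4 are among 6515 genes with a symbol. Ppm1k had 2 probes, and Bckdhb, Bckdk and Ivd had 1 each. The other 3 genes, Bckdha, Bcat2 and Dbt, had none. A gene was represented by its brightest probe. The list was drawn up with earlier results of these data in view, and Ppm1k was selected on its log2 levels in the diet groups, so its levels are given as a description with no test.

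Leucine, isoleucine and valine are first transaminated, by the mitochondrial aminotransferase Bcat2 among others, and the resulting keto acids are then oxidized by the branched-chain keto acid dehydrogenase complex. Bckdha and Bckdhb encode the subunits of its decarboxylase and Dbt its core. The complex is set by phosphorylation: the kinase Bckdk adds phosphate and switches it off, and the mitochondrial phosphatase Ppm1k removes the phosphate and switches it on. In rodent liver the same kinase and phosphatase are also known to act on ATP-citrate lyase, an enzyme of fat synthesis. Ivd, isovaleryl-CoA dehydrogenase, takes the leucine product through its next oxidation.

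Each of 25 single-colour CodeLink UniSet Rat I arrays read the liver RNA of 1 male Sprague-Dawley rat. The study varied pyrroloquinoline quinone (PQQ), a redox cofactor of bacterial enzymes that is also found in food. Supplemented rats (6 arrays, PQQ+ in the labels) received a purified basal diet with PQQ, and their dams, 10 weeks old, had received it from the last 10 days of gestation. The labels give the amount as 2 mg and as 6.67 nmol per g of diet, which are not the same amount. Deficient rats (6 arrays, PQQ-) and their dams received the same basal diet without PQQ. At 6.5 weeks some supplemented rats were moved to the diet without PQQ for 48 h (depletion, 3 arrays, PQQ+/-), and some deficient rats were injected intraperitoneally with PQQ at 1.5 mg per kg of body weight every 12 h for 36 h (repletion, 4 arrays, PQQ-/+). The labels name no group injected without PQQ. Rats on standard laboratory chow (6 arrays) served as a reference, so chow differs from the other 4 groups in the whole diet and not in PQQ alone. The age of the chow rats, the age of their dams and their prenatal diet are not given, so chow may differ in these too.

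The median probe had an intensity of 103.2 to 281 above its background on the different arrays, and 83% to 89.6% of gene probes were above background. Chow arrays 1 and 2 and supplemented arrays 5 and 6 were nearly identical, with a spread of log2 ratios of 0.108 and 0.109 against 0.202 to 0.377 for other pairs of a group. The arrays of such a pair were replaced by their mean. This left 5 supplemented, 6 deficient, 3 depletion, 4 repletion and 5 chow samples. The arrays fell into 5 sets that shared defective spots. The supplemented arrays were spread over set 1 (array 1), set 2 (arrays 2 and 3) and set 3 (arrays 4 to 6), and the deficient arrays over set 3 (arrays 1 to 5) and set 4 (array 6). The chow arrays lay in set 1 (arrays 1 to 3) and set 5 (arrays 4 to 6). All depletion arrays lay in set 4 and all repletion arrays in set 5. Deficient 6 stood apart from the other deficient samples, and results that rest on it are given with and without it. The labels do not say how rats of a group were housed or bred, and the p-values cover the spread between these samples only. The number of arrays limits the precision.

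Ppm1k, the phosphatase that switches the dehydrogenase on, was highest in livers of deficient rats and lowest in livers of supplemented and repletion rats. On the log2 scale of normalized intensity its 6 deficient samples lay between 10.49 and 11.52, with a median of 10.93. Its supplemented samples were at 9.15, 9.07, 9.58 and 9.88 for rats 1 to 4 and at 9.38 for the averaged arrays 5 and 6. Its repletion samples were at 9.61, 9.24, 9.53 and 8.60. Every deficient sample was above every supplemented and every repletion sample, while the supplemented and repletion ranges overlapped. Its depletion samples were at 10.68, 9.98 and 9.80. Its chow samples were at 10.46 for the averaged arrays 1 and 2 and at 10.51, 9.84, 9.90 and 10.17 for arrays 3 to 6. The depletion and chow samples thus covered nearly the same range, between the other groups, and each reached into the deficient range with its highest sample and into the supplemented range with its lowest.

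The mean level of Ppm1k fell into this order: 10.93 ± 0.37 (SD, n = 6) in deficient rats, 10.18 ± 0.31 (SD, n = 5) in chow rats, 10.16 ± 0.47 (SD, n = 3) in depletion rats, 9.41 ± 0.33 (SD, n = 5) in supplemented rats and 9.24 ± 0.46 (SD, n = 4) in repletion rats. The means of chow and depletion, and those of supplemented and repletion, differed by less than the spread within either group. Deficient livers were 1.52 (SE 0.22) above supplemented livers, or 2.86-fold. Repletion livers differed from deficient livers by -1.69 (SE 0.23), or 3.22-fold. These comparisons share the deficient samples, so the size of one is not independent of the other. Depletion livers were 0.74 (SE 0.26) above supplemented and differed from deficient livers by -0.77 (SE 0.25). Chow livers were 0.76 (SE 0.23) above supplemented livers and differed from deficient livers by -0.75 (SE 0.22). Repletion livers differed from chow livers by -0.93 (SE 0.24), with no overlap between samples.

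**Figure D1:**
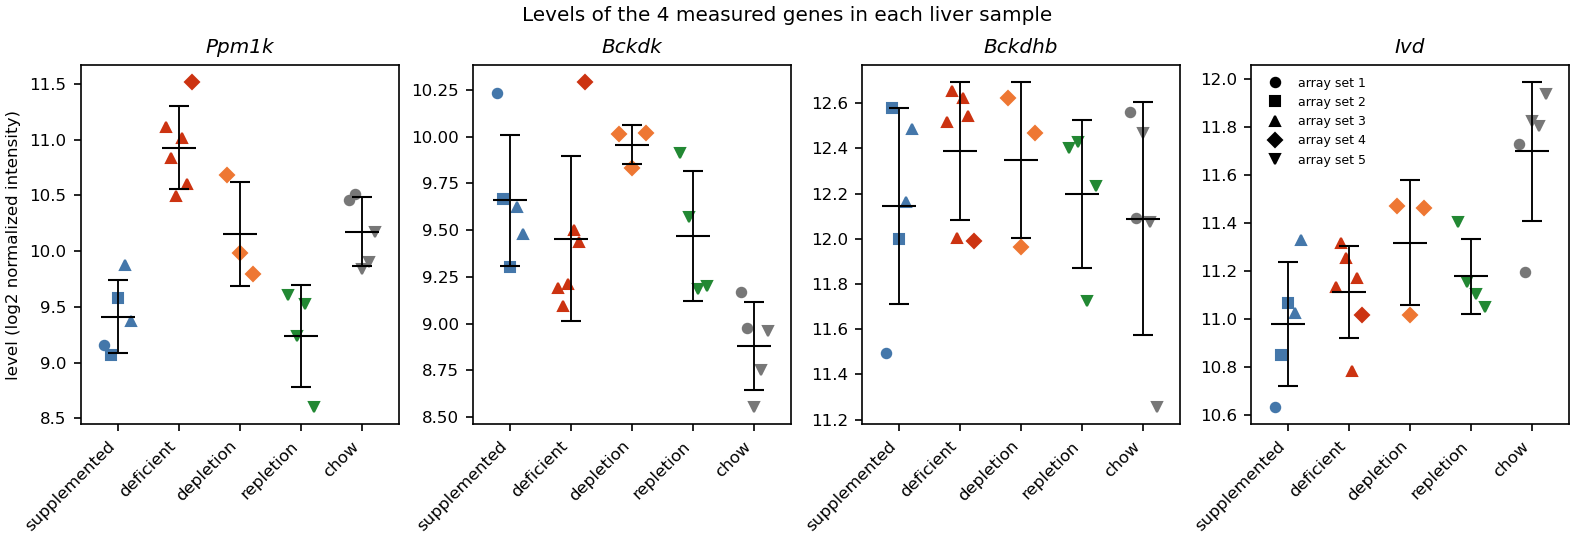
Level of the 4 measured genes (log2 normalized intensity) in each of 23 liver samples by group, with bars for the mean and SD and a marker shape for the array set. Ppm1k lies between 10.49 and 11.52 in all 6 deficient samples and between 8.60 and 9.88 in all supplemented and repletion samples, while the Bckdhb groups overlap throughout.

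The array sets move with some of these differences. Deficient and supplemented rats met in set 3, where 5 deficient samples were 1.18 (SE 0.20) above 2 supplemented samples. Chow and supplemented rats met in set 1, where 2 chow samples were 1.33 (SE 0.17) above 1 supplemented sample. Repletion and chow rats met in set 5, where 4 repletion samples differed from 3 chow samples by -0.73 (SE 0.23). Depletion rats met another group only through deficient 6, from which they differed by -1.37 (SE 0.37). Repletion and deficient rats shared no set. With the set as a fixed block their difference was -0.58 (SE 0.53), and that of depletion and supplemented rats was -0.19 (SE 0.45), against 0.74 without the block. Chow and deficient rats shared no set either, and with the block their difference was 0.15 (SE 0.47) against -0.75 without it. Where 2 groups shared no set, set and group cannot be fully told apart.

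Without deficient 6, the highest Ppm1k sample, deficient livers were 1.40 (SE 0.21) above supplemented livers and repletion livers differed from deficient livers by -1.57 (SE 0.22). Leaving out any single sample kept the difference of deficient and supplemented rats between 1.40 and 1.63 and that of repletion and deficient rats between -1.81 and -1.47. Levels of Kupffer cell (liver macrophage) markers were lower in deficient than in supplemented, repletion and chow samples. Of 8 listed markers 5 had a probe, all above background on every array. Their mean level was 9.09 to 9.33 in deficient samples against 9.46 to 9.89 in supplemented, 9.47 to 9.77 in repletion and 9.64 to 10.01 in chow samples. In depletion samples it was 9.20 to 9.79, which overlapped the deficient range. Of the 4 tested, 2 fell in deficient against supplemented livers, where 3.21% of probes passed, and 3 rose in repletion against deficient livers, where 36.3% passed. All 4 rose in chow against deficient livers, where 27.4% passed, and 1 fell in repletion against chow livers, where 1.35% passed. Col1a1, the 1 measured of 5 listed markers of stellate cells, rose by 0.75 in repletion against deficient livers, by 0.73 in chow against supplemented and by 1.15 in chow against deficient livers. The part of these markers in the results was not tested. In whole liver, fewer cells of a type and less RNA per cell cannot be told apart.

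The second Ppm1k probe was dim and did not repeat all of this pattern. It had a mean of 7.08 against 10.04 for the first. It exceeded the median of its array in only 1 of 23 samples, too few for it to enter a test. In deficient 6 it was below background. Its 6 deficient samples lay between 6.11 and 7.84 with a median of 7.37, and 5 of them were above 7.2. Its supplemented samples lay between 6.37 and 6.86, its repletion samples between 6.70 and 7.40, its depletion samples between 6.76 and 7.12 and its chow samples between 6.58 and 7.92. Apart from deficient 6, all deficient samples lay above all supplemented samples on this probe too, and the mean difference was 0.59 (SE 0.25) with deficient 6 included. The repletion and deficient means differed by -0.09 (SE 0.27) with deficient 6 included, against -1.69 on the brighter probe. Without deficient 6 the deficient mean of the dimmer probe was 7.48 instead of 7.25. Its repletion mean was 7.16 and its supplemented mean 6.66. The array lists a different sequence record for each probe, and whether both probes measure the same transcript was not tested. Over the 23 samples the Pearson correlation of the probes, given as a description, was 0.187 (Spearman rho 0.28). It was 0.435 without the 2 samples farthest from the median of Ppm1k, 0.479 over 22 samples without deficient 6, and -0.225 with the group means removed.

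Of the members other than Ppm1k, 3 were tested. In deficient against supplemented livers 0 of 3 passed the test (limma, adjusted p under 0.05; also 0 at an unadjusted p under 0.05), where 3.21% of the 5426 probes tested passed (1.71% higher and 1.49% lower). In repletion against deficient livers 0 of 3 passed (also 0 unadjusted), where 36.3% of probes passed (15.4% higher and 20.9% lower). In depletion against supplemented livers 0 of 3 passed (also 0 unadjusted) beside 0.184% of probes. In depletion against deficient livers 0 of 3 passed (1 unadjusted, Bckdk) beside 7.59% of probes. In chow against supplemented livers 2 of 3 passed beside 9.49% of probes (4.97% higher and 4.52% lower). In chow against deficient livers 2 of 3 passed beside 27.4% (12% higher and 15.4% lower). In both, Bckdk fell and Ivd rose. In repletion against chow livers 0 of 3 passed (2 unadjusted, Bckdk and Ivd) beside 1.35% of probes. Counts of so few genes, beside shares as high as 36.3%, say little about the pathway as a whole.

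**Figure D2:**
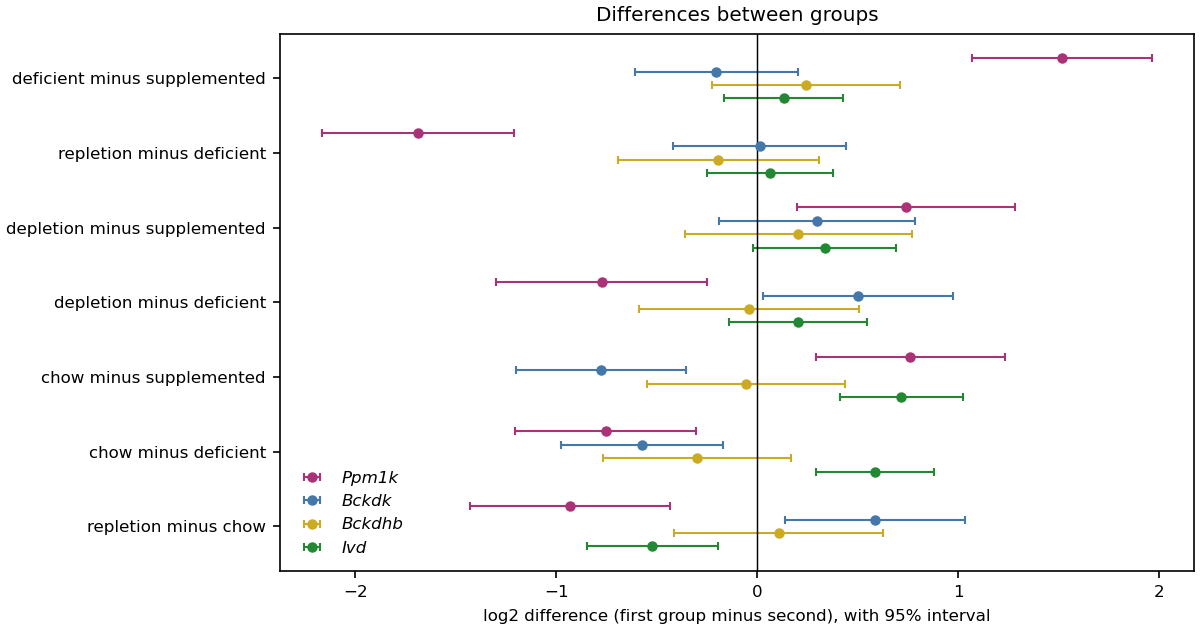
Difference between group means on the log2 scale (first group minus second) for the 4 measured genes in 7 comparisons, with 95% intervals from the fit. Ppm1k stands at 1.52 for deficient minus supplemented and at -1.69 for repletion minus deficient. It was selected on its levels in these groups, so its intervals are a description with no test and no yardstick for the other genes. The intervals of Bckdk, Bckdhb and Ivd include 0 in these comparisons. Bckdk lies below and Ivd above 0 for chow against both purified diets.

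Bckdk and Ivd were the members called in chow, in opposite directions, and their promoters are shown for that reason. The sequences are those of RefSeq on GRCr8, from 250 bases before to 50 bases after the start of the gene, 5′ to 3′ on the gene's strand, which is the plus strand for both. Capitals mark GGGCGG, the GC box. They also mark the CCAAT box, which reads ATTGG on the other strand. The Bckdk promoter lies at chr1:191945559-191945858 and the Ivd promoter at chr3:126305334-126305633.
Bckdk: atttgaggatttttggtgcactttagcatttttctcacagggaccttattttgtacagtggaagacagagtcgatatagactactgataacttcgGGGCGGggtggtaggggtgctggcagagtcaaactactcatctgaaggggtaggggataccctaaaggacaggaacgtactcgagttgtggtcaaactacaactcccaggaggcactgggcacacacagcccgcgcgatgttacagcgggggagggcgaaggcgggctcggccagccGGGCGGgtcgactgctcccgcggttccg
Ivd: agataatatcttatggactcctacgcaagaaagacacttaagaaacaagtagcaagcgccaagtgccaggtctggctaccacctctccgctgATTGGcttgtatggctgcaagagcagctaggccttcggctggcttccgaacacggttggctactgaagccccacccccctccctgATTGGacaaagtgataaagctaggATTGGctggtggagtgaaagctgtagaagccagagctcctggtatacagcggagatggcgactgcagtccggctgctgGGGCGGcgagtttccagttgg
The Bckdk promoter holds GGGCGG at positions -155 and 22 from the start and no CCAAT, and 56% of its bases are G or C. The Ivd promoter holds CCAAT on the other strand at -158, -73 and -49 and GGGCGG at 29, and 54.7% of its bases are G or C. Of 33469 rat promoters of the same length, 33.1% hold GGGCGG and 37.5% hold CCAAT on either strand, so both motifs are common. CACGTG (E-box, in 6.42% of promoters) and TTATGTAA (D-box, in 0.893%) were searched on both strands too and were in neither window. A match is a description of these letters and not a measured site. Of the 7 genes, 5 had a promoter in the table.

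Bckdk, the kinase that switches the dehydrogenase off, was lowest in chow livers. Its chow samples were at 9.17 for the averaged arrays 1 and 2 and at 8.98, 8.55, 8.75 and 8.96 for arrays 3 to 6. Its supplemented samples were at 10.23, 9.66, 9.30 and 9.62 for rats 1 to 4 and at 9.48 for the averaged arrays 5 and 6, and every one lay above every chow sample. Its deficient samples lay between 9.10 and 10.29 with a median of 9.33, and the lowest of them was just within the chow range. Its repletion samples were at 9.91, 9.57, 9.18 and 9.20 and its depletion samples at 10.02, 9.83 and 10.02, all above the chow samples. Bckdk fell by 0.78 (SE 0.20, 1.71-fold) in chow against supplemented livers (limma adjusted p = 0.0204) and by 0.57 (SE 0.20) in chow against deficient livers (limma adjusted p = 0.0327).

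The Bckdk calls for chow were near the threshold. Against supplemented rats the call was lost without supplemented 1, chow 4 or chow 5, with limma adjusted p-values of 0.0598, 0.0636 and 0.0533. With the array set as a fixed block the difference was -1.16 (SE 0.26, limma adjusted p = 0.0159). That value is by construction the difference within set 1, of 2 chow samples from supplemented 1 alone, which had the highest supplemented Bckdk level (10.23). Against deficient rats the limma adjusted p was between 0.0506 and 0.0999 without deficient 4, deficient 6, chow 4, chow 5 or chow 6, and with the block the difference was -0.90 (limma adjusted p = 0.233). In repletion against chow livers Bckdk was 0.59 (SE 0.22) higher with no overlap between samples, and this did not pass (limma adjusted p = 0.21). With the block it was 0.71 and passed (limma adjusted p = 0.0312), while among the 7 samples of set 5 alone it was also 0.71 and did not pass (limma adjusted p = 0.162).

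Between the groups on purified diets Bckdk passed in no comparison. Deficient minus supplemented was -0.20, with a 95% interval of -0.61 to 0.20, and repletion minus deficient was 0.01, with an interval of -0.42 to 0.44. Depletion minus supplemented was 0.30 (interval -0.19 to 0.79). Depletion minus deficient was 0.50 (SE 0.23, limma adjusted p = 0.204), but deficient 6, at 10.29, was far above the other deficient samples, which lay between 9.10 and 9.50. Without it the difference was 0.67 and passed (limma adjusted p = 0.0228), whereas against deficient 6 alone, which shares array set 4 with the depletion rats, depletion rats were at -0.34 (SE 0.21).

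Ppm1k and Bckdk work against each other on the same enzyme, and their balance was set out per sample as the log2 level of Ppm1k minus that of Bckdk, relative to the supplemented mean. A difference of levels of separate probes carries no absolute meaning, so only its shifts between samples are read. It lay between 1.41 and 2.17 in the 6 deficient samples and between 1.40 and 1.78 in the 5 chow samples. It lay between -0.83 and 0.53 in supplemented, between 0.02 and 0.92 in depletion and between -0.36 and 0.59 in repletion samples. All deficient and chow samples were above all others, with means of 1.72 ± 0.31 (SD, n = 6) and 1.54 ± 0.15 (SD, n = 5). In deficient rats the shift came mostly with Ppm1k, since their Bckdk samples overlapped the supplemented ones, and in chow rats with a higher Ppm1k and a lower Bckdk level than in supplemented rats. Since Ppm1k was chosen for its pattern, this measure has no test.

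**Figure D3:**
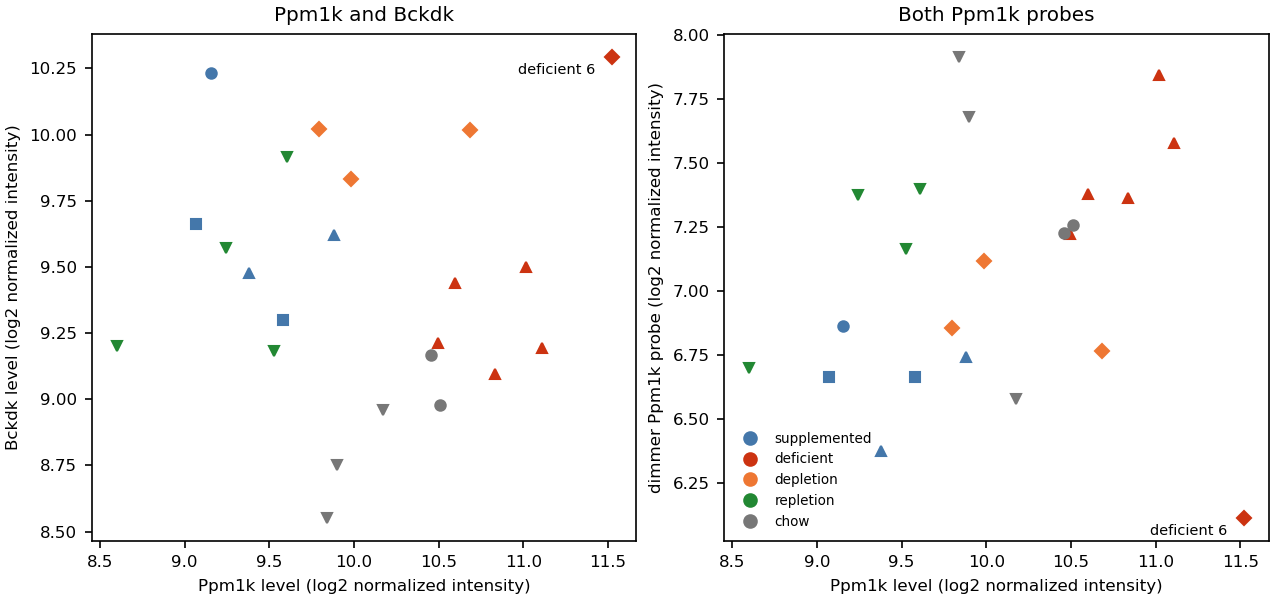
Level of Bckdk (left) and of the dimmer Ppm1k probe (right) against the level of the brighter Ppm1k probe in 23 samples, all on the log2 scale of normalized intensity, coloured by group and shaped by array set as in the plot of levels. Deficient 6 has the highest value of the brighter Ppm1k probe (11.52), the highest Bckdk (10.29) and the lowest value of the dimmer Ppm1k probe (6.11).

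Over the 23 samples the Pearson correlation of Ppm1k with Bckdk was 0.00318 (Spearman rho -0.118). The samples share diet groups and array sets and Ppm1k was selected on its levels, so the correlations are descriptions with no test. It was -0.291 without the 2 samples farthest from the Ppm1k median and -0.211 without deficient 6. The correlation of Ppm1k was 0.187 with Bckdhb and 0.116 with Ivd (Spearman rho 0.262 and 0.145). With the group means removed the correlations with Bckdk, Bckdhb and Ivd were 0.398, -0.0049 and -0.019.

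Bckdhb, a subunit of the dehydrogenase itself, was measured at a high level in all groups and passed the test in none of the 7 comparisons (limma adjusted p between 0.344 and 0.96). Its group means ran from 12.09 ± 0.52 (SD, n = 5) in chow to 12.39 ± 0.31 (SD, n = 6) in deficient livers. Single samples lay between 11.25 (chow 6) and 12.66 (deficient 2), and all groups overlapped. Deficient minus supplemented was 0.24 with a 95% interval of -0.23 to 0.71, and with the array set as a fixed block it was 0.14 (SE 0.28). Repletion minus deficient was -0.19 with an interval of -0.69 to 0.31. With the fixed block this difference was 0.95 (SE 0.56), turned in sign and not past the threshold. Ppm1k was selected on its levels, so its differences are not used as a yardstick for Bckdhb. For the other subunit genes, Bckdha and Dbt, the array has no probe.

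Ivd, the first enzyme of the leucine branch, was highest in chow livers. Its chow samples were at 11.73 for the averaged arrays 1 and 2 and at 11.20, 11.82, 11.81 and 11.94 for arrays 3 to 6. Its supplemented samples were at 10.63, 10.85, 11.07 and 11.03 for rats 1 to 4 and at 11.33 for the averaged arrays 5 and 6. Its deficient samples lay between 10.79 and 11.32 with a median of 11.15, so that only chow 3 reached into the ranges of both purified diets. Ivd rose by 0.72 (SE 0.15, 1.65-fold) in chow against supplemented livers (limma adjusted p = 0.00576) and by 0.59 (SE 0.14, 1.50-fold) in chow against deficient livers (limma adjusted p = 0.00445). Leaving out any sample kept both calls, with limma adjusted p-values up to 0.0254 and 0.0166. With the array set as a fixed block the differences were 0.83 (limma adjusted p = 0.0956) and 0.88 (limma adjusted p = 0.211), no longer past the threshold. The first is by construction the difference within set 1, of 2 chow samples from supplemented 1 alone. That sample had the lowest supplemented Ivd level (10.63), and the second difference runs through it too.

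Ivd passed in no comparison between the PQQ groups. Deficient minus supplemented was 0.13 (95% interval -0.16 to 0.43) and repletion minus deficient 0.07 (interval -0.25 to 0.38). Depletion minus supplemented was larger, at 0.34 (interval -0.02 to 0.69), and depletion minus deficient was 0.205 (interval -0.14 to 0.55). Its repletion samples were at 11.40, 11.15, 11.10 and 11.05 and its depletion samples at 11.47, 11.02 and 11.46. Repletion livers differed from chow livers by -0.52 (SE 0.16) (limma adjusted p = 0.0979). With the set as a block this difference was -0.68 (limma adjusted p = 0.0312), within set 5 it was -0.68 (limma adjusted p = 0.0509), and without chow 3 it was -0.65 (limma adjusted p = 0.0437).

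The steps after the dehydrogenase and Ivd were followed through 23 further listed genes, of which 16 had a probe and 15 were tested. In deficient against supplemented livers 0 rose and 0 fell (limma; 3 at an unadjusted p under 0.05), with a median difference of -0.02 against 0.00 over all probes, where 3.21% of probes passed. In repletion against deficient livers 1 rose and 3 fell, with a median of -0.11 against -0.03 over all probes, where 36.3% of probes passed. In chow against deficient livers 2 rose and 2 fell, with a median of -0.09 against -0.03, where 27.4% of probes passed. In chow against supplemented livers 0 rose and 1 fell, where 9.49% of probes passed. In depletion against supplemented, depletion against deficient and repletion against chow livers 0 passed (1, 1 and 2 at an unadjusted p under 0.05 in limma), where 0.184%, 7.59% and 1.35% of probes passed. Where more than 1 gene passed, the calls were split in direction.

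Mccc1, the biotin-carrying subunit of methylcrotonyl-CoA carboxylase, the leucine step after Ivd, fell by 0.43 (SE 0.12) in repletion against deficient livers (limma adjusted p = 0.00921).

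Hsd17b10, a mitochondrial dehydrogenase of the isoleucine branch, had the largest difference among the later-step genes that passed. Its repletion samples were at 12.06, 12.14, 11.93 and 11.84. Its deficient samples lay between 8.81 and 10.98 with a median of 10.73, all below all repletion samples. It rose by 1.54 (SE 0.35) in repletion against deficient livers (limma adjusted p = 0.00199) and by 0.91 (SE 0.33) in chow against deficient livers (limma adjusted p = 0.0449). The lowest value, 8.81, was deficient 6, and without it the differences were 1.21 (limma adjusted p = 0.0011) and 0.58 (limma adjusted p = 0.0691). With the array set as a fixed block they were 0.24 (limma adjusted p = 0.967) and -0.23 (limma adjusted p = 0.938). Acadsb, the acyl-CoA dehydrogenase of the same branch, fell by 0.38 (SE 0.14) in repletion against deficient livers (limma adjusted p = 0.0415). A dimmer Acadsb probe, with a mean of 5.83, showed a difference of 0.05 there.

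Enzymes shared with fatty acid oxidation were among the calls. Hadhb, a subunit of the mitochondrial trifunctional protein, fell by 0.61 (SE 0.14) in repletion against deficient livers (limma adjusted p = 0.00247). It fell by 0.50 (SE 0.14) in chow against supplemented livers (limma adjusted p = 0.0297) and by 0.72 (SE 0.13) in chow against deficient livers (limma adjusted p = 0.000672). Acaa2, a mitochondrial thiolase, fell by 0.49 (SE 0.13) in chow against deficient livers (limma adjusted p = 0.0083), and Echs1, the short-chain enoyl-CoA hydratase, rose by 0.88 (SE 0.32, limma adjusted p = 0.0479). The genes of the valine steps, Hibch, Hibadh and Aldh6a1, and those of propionyl-CoA use, Pccb, Mcee and Mmaa, passed in no comparison of all samples without a block. Without deficient 6, Aldh6a1 fell by 0.73 (limma adjusted p = 0.038) in repletion against deficient livers. With the array set as a fixed block these genes were among the calls in depletion against deficient livers, which run through deficient 6.

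**Figure D4:**
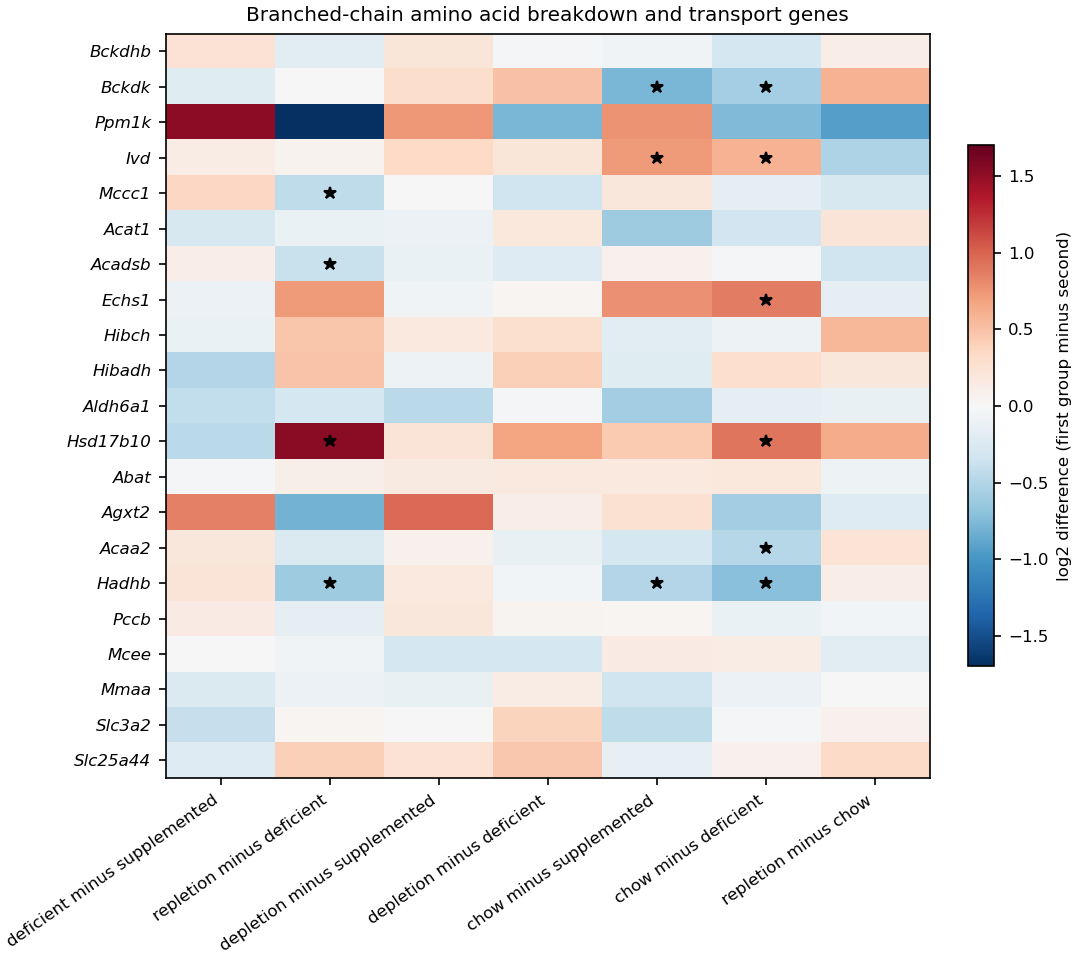
Log2 difference (first group minus second, colour) of the measured genes of branched-chain amino acid breakdown and transport in 7 comparisons, with a star where limma's adjusted p was under 0.05 (Ppm1k has no test). Ppm1k has the strongest colours for deficient minus supplemented (1.52) and repletion minus deficient (-1.69), and the starred genes of repletion minus deficient are 1 higher and 3 lower.

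These calls depend on the samples and sets. Without deficient 6, 2 later-step genes rose and 4 fell in repletion against deficient livers (41.1% of all probes), and 1 rose and 3 fell in chow against deficient livers (36.1%). With the array set as a fixed block none of the genes named above for these comparisons passed (1.52% and 2.12% of probes did). With that block Agxt2, an aminotransferase of the valine branch, was the later-step gene past the threshold in repletion and in chow against deficient livers and in chow against supplemented livers, with differences of 2.08, 2.12 and 1.99. All of these run through array set 1, where supplemented 1 is the only supplemented sample and had an Agxt2 level of 8.84, against 10.22 to 11.31 in the other supplemented samples. Without the block Agxt2 differed by -0.81 (limma adjusted p = 0.071) between repletion and deficient livers, so the block turned its direction. With the set as a random block 0 of the 15 passed in these 3 comparisons.

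Depletion rats share an array set with deficient 6 alone, so with a fixed block every comparison of depletion rats runs through that sample. Then 7 later-step genes were higher and 3 lower past the threshold in depletion against deficient livers (40.1% of probes passed), and 5 were higher against supplemented livers (28.1% of probes). With a random block 5 were higher and 2 lower against deficient livers (26.5% of probes) and 0 passed against supplemented livers (4 at an unadjusted p under 0.05 in limma). Among them Hsd17b10 and Aldh6a1, methylmalonate semialdehyde dehydrogenase of the valine branch, were 2.32 and 2.13 above deficient 6 with the fixed block, and in both genes deficient 6 lay far below the other deficient samples, at 8.81 and 8.89. Among the deficient samples, deficient 6 was the lowest for 8 of the 15 genes and the highest for 6.

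Transporters and regulators around the pathway were followed as well. Of 5 listed transporters 3 had a probe and 2 were tested, Slc3a2, the partner chain of the plasma membrane carrier, and Slc25a44, the mitochondrial carrier, and neither passed in any comparison. Klf15, a transcription factor known in mice to induce these genes, passed in none either (limma adjusted p between 0.366 and 0.859). Of 10 listed genes around ChREBP, a carbohydrate-responsive factor known to act on Bckdk and Ppm1k in rodent liver, 7 were tested. Txnip, a target of that factor, fell by 0.78 (SE 0.23, limma adjusted p = 0.0108) and Khk, ketohexokinase, rose by 0.35 (SE 0.13, limma adjusted p = 0.0367) in repletion against deficient livers. They were the only calls there among the 7, where 36.3% of all probes passed. Txnip was at 0.07 with the array set as a fixed block (limma adjusted p = 0.978), which turned its direction, and Khk at 0.56 (limma adjusted p = 0.69). Acaca, acetyl-CoA carboxylase, fell by 0.61 (SE 0.19, limma adjusted p = 0.0236) in chow against deficient livers, where a dimmer Acaca probe with a mean of 5.98 showed -0.08. It was the only call of the 7 there, beside 27.4% of all probes, and none of the 7 passed in the other comparisons. With the fixed block Acaca was at -1.23 (limma adjusted p = 0.145). Acly, the lipid-side substrate of the kinase and phosphatase, passed in none, and its largest difference was 1.28 (SE 0.34, limma adjusted p = 0.0634) for repletion minus chow. Mlxipl, which encodes ChREBP, has no probe.

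Related phosphatases were compared with Ppm1k as well. Of 10 listed genes of other keto acid dehydrogenases, their kinases and phosphatases, 3 were tested. Of 10 other listed phosphatases of the Ppm1k family, 2 were tested. In repletion against deficient livers 1 of the 3 and 1 of the 2 fell, where 36.3% of probes passed. In chow against supplemented and in depletion against deficient livers 1 of the 2 fell, where 9.49% and 7.59% passed. Pdp1, the matching phosphatase of pyruvate dehydrogenase, fell by 0.57 (SE 0.12, limma adjusted p = 0.000839) in repletion against deficient livers. Its repletion samples were at 7.27, 7.24, 7.24 and 7.49 and its 6 deficient samples between 7.69 and 8.06, with no overlap. The difference was -0.28 with the array set as a fixed block (limma adjusted p = 0.909). Its deficient and supplemented means were 7.88 and 7.89. Ppm1a, of the same phosphatase family as Ppm1k, fell by 0.58 (SE 0.16, limma adjusted p = 0.00613) in that comparison and by 0.51 (SE 0.15, limma adjusted p = 0.0423) in chow against supplemented livers. With the array set as a fixed block the Ppm1a differences were 0.50 and 0.08, turned in sign and not past the threshold. Ppm1f, of that family too, fell by 0.40 (SE 0.12, limma adjusted p = 0.0386) in depletion against deficient livers, and was at -0.20 with the fixed block (limma adjusted p = 0.386).

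The genes whose levels ran most like Ppm1k were sought among 5477 named probes above background on every array, by Pearson correlation over the 23 samples, as a description. The highest were Amigo2 (0.844), an adhesion protein, B4gat1 (0.841), a glycosyltransferase, Ripk4 (0.832), a protein kinase, Wdr41 (0.827) and Nat8f3 (0.821). The most opposite were Gk (-0.812), glycerol kinase, Sfpq (-0.798), a splicing factor, Kpna4 (-0.786), a nuclear import adaptor, Fam89b (-0.77) and Lrp5 (-0.769), a Wnt co-receptor. With the group means removed all were weaker. In the same order, the alike genes were then at 0.395, 0.754, 0.473, 0.6 and 0.512. The opposite genes were at -0.649, -0.604, -0.362, -0.606 and -0.648. Amigo2 had its highest mean in deficient livers, 9.32 ± 0.25 (SD, n = 6), and its lowest in repletion livers, 8.40 ± 0.07 (SD, n = 4). Gk had its lowest mean in deficient livers, 7.99 ± 0.39 (SD, n = 6), and was at 8.98 ± 0.14 (SD, n = 5) in supplemented livers. No other member of the pathway was among these genes.

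The tissue was checked against cell type markers. Of 8 listed hepatocyte markers 4 had a probe. Alb, Apoa1 and Fgb were above background on all 25 arrays with means of 15.41, 15.29 and 11.98. Cyp2e1 had a mean of 15.29 over the samples with a value and was above background on 17 arrays. Defective spots have no value but enter that count of arrays, so the count is not read as low expression elsewhere. In comparisons with deficient livers only 3 of the 4 hepatocyte markers were tested, since 1 had too few deficient samples with a value. Markers of skeletal muscle, another tissue with much of this pathway, were low. Mb was above background on 0 arrays, Acta1 on 22 with a mean of 6.27, and Ckm on 25 with a mean of 6.93. The pancreas markers Amy2a3 and Pnlip were above background on 0 arrays and Cpa1 on 1, while Cela1 had a mean of 10.98. Cela1 rose by 0.78 in chow against supplemented and by 0.81 in chow against deficient livers, where 9.49% and 27.4% of probes passed. Of 3 tested markers of liver endothelium, 1 fell in repletion against deficient livers, where 36.3% of probes passed. The part of these markers in the results was not tested. Of 3 hepatocyte markers tested between deficient and supplemented livers, 0 passed in limma (median difference -0.06). In chow against supplemented livers 1 of 4 fell, where 9.49% of probes passed. In chow against deficient livers 1 of 3 fell, where 27.4% passed.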

How the data were processed

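Per the labels' protocols, total RNA was amplified from poly(A) tails and labelled with biotin. Per the file headers, the scanner tables hold intensity and background for every spot, plus a flag, and were not normalized between arrays. Flagged spots have no entry in the authors' deposited value table and were treated as defective (54 to 169 an array). The signal values of that table were deposited by the authors as processed values on a linear scale (median per array between 0.781 and 1.04; rank correlation with the scanner intensity between 0.9975 and 0.9998). Their normalization is not given in the sources used here. They served as an alternative.

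Background was corrected with normexp (offset 50) on all 10399 spots, the 488 controls were removed, and quantile normalization and log2 were applied to 9911 probes. Symbols came from the platform annotation, updated through a RefSeq table (7356 probes with 1 symbol, 86 with several, 2469 with none). A probe counted as above background where its intensity exceeded the median of 9 kinds of control spots by over 3 MADs. Probes entered a comparison where at least 50% of the samples of any group lay over the array median. All groups entered 1 fit in limma 3.58.1 (R 4.3.3), 2-sided, with Benjamini-Hochberg adjustment over all probes tested and a threshold of 0.05. Arrays joined a set where their defective spots overlapped by over 0.5, and a pair with a spread under 0.15 was averaged.

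The members and gene lists were chosen with earlier results of these data known. Named genes were all members, list genes past the threshold, Klf15 and the 5 genes most alike and 5 most opposite to Ppm1k. Acly, the transporters, the valine and propionyl-CoA genes, Agxt2 and the markers were named after their values were seen. Deviations of 36 same-numbered pairs of samples correlated with a median of -0.0328, and 7 exceeded 0.1, so numbers were not used as pairs. The fit was tested on simulated data. Correlations used numpy 2.4.6 and pandas 2.3.3 (Python 3.11.15), and figures matplotlib 3.10.9. Alternatives covered background, scaling, filter, defective spots, moderation, groups in the fit, array set, replicate block, sample weights and leaving out each sample. Later-step counts by array set and without deficient 6 were added after seeing the data. 1 listed gene is not reported here and is left out of the counts of its list.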

Additional observations from a re-analysis of the deposited data

Results flagged for a closer look

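A sample far from the rest of its group, by Dixon's criterion, was found in 14 of 104 sets of values (26 probes in the groups of 4 to 6 samples). Chance gives about 1 in 20. Deficient 6 accounts for 7 of the 14. Its Bckdk level was 10.29, with the next deficient sample at 9.50, and the dimmer Ppm1k probe was at 6.11, with the next at 7.22. Hibch was at 5.89 there (next 7.50), Aldh6a1 at 8.89 (next 11.21), Hsd17b10 at 8.81 (next 10.59) and Mmaa at 7.03 (next 8.58), all low, while Pccb was high at 12.09 (next 11.57). Deficient 6 is also the only deficient sample in array set 4. Whether the set or the rat gives these values was not tested.

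In the other samples Ivd was low in chow 3 at 11.20 (next 11.73) and Mmaa low in chow 6 at 7.53 (next 8.56). Acadsb was low in supplemented 2 at 10.94 (next 11.30), and Mcee was high in repletion 1 at 12.21 (next 12.05). Pdp1 was high in supplemented 3 at 8.25 (next 7.88), in repletion 4 at 7.49 (next 7.27) and in chow 3 at 8.04 (next 7.63). No brighter-probe value of Ppm1k and no Bckdhb value stood apart in this way.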

How the results depend on the processing

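Ppm1k kept its direction in deficient against supplemented and in repletion against deficient livers under all alternatives run. Leaving out each sample gave 1.40 to 1.63 and -1.81 to -1.47 there, 0.48 to 0.92 for depletion minus supplemented, -1.04 to -0.60 for depletion minus deficient, 0.68 to 0.88 and -0.84 to -0.64 for chow minus supplemented and minus deficient, and -1.05 to -0.72 for repletion minus chow. The array set as a fixed block gave Ppm1k -0.58 for repletion minus deficient, -0.19 for depletion minus supplemented (random block 0.35), -1.37 for depletion minus deficient (also within set 4), 1.33 for chow minus supplemented (also within set 1) and 0.15 for chow minus deficient. The cause was not tested. The number of other members called was 0 to 1 for depletion minus deficient, 1 to 2 for both chow comparisons and 0 to 1 for repletion minus chow when samples were left out. For chow minus supplemented it was 1 with the fixed block (2.66% of all probes) and within set 1 (2.46%). For chow minus deficient it was 0 with either block (2.12% and 1.55%), 1 with only the 2 groups in the fit (17.3%) and 1 with sample weights (37.5%). For repletion minus chow it was 2 with either block (2.03% and 2.64%) and 1 with sample weights (3.08%). For depletion minus deficient it was 1 with sample weights, which raised the share of all probes from 7.59% to 33.1%.

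Apart from the Ppm1k values above, the directions that turned belonged to tested members in comparisons where they had not passed. With the fixed block Ivd was at -0.045 for deficient minus supplemented (also within set 3), Bckdk at -0.184 for repletion minus deficient, -0.599 for depletion minus supplemented and -0.338 for depletion minus deficient (also within set 4). Bckdhb was then at 0.951 for repletion minus deficient, 0.36 for depletion minus deficient (also within set 4), 0.83 for chow minus supplemented (also within set 1) and 0.686 for chow minus deficient. With the random block Bckdhb was at 0.33, 0.279, 0.354 and 0.149 in those comparisons, and Bckdk at -0.134, -0.224 and -0.043 in its 3. The authors' table gave Bckdhb 0.042 for repletion minus deficient and 0.129 for chow minus supplemented. Sample weights gave Bckdhb -0.129 for depletion minus supplemented and Ivd -0.04 for depletion minus deficient, and median scaling gave Bckdhb 0.21 there. On leaving out samples, Bckdk ran from -0.136 to 0.18 and Ivd from -0.01 to 0.108 for repletion minus deficient. Bckdhb then ran from -0.174 to 0.155 for depletion minus deficient, -0.217 to 0.154 for chow minus supplemented and -0.102 to 0.265 for repletion minus chow. With the replicate block, Bckdhb was at 0.116 for chow minus supplemented and -0.049 for repletion minus chow, Ppm1k at 1.46 for deficient minus supplemented, and no call changed. Probes near background, such as the dimmer Ppm1k probe, limit what can be measured.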
